A study of Mus musculus with 4 samples.

Results

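Acute phase and alarm genes encode proteins that tissue releases or displays during injury and inflammation, and 10 of them were followed here across 4 arrays of 3D engineered muscle from mouse, a tissue that is assembled and kept in culture. They are Ptx3, Lcn2, Saa3, C3, Slpi, S100a8, S100a9, Il1rl1 and the transcription factor genes Cebpb and Cebpd. The genes were picked by name, with their behaviour on these same arrays already known, so their values are given as a description and carry no test. All 10 of 10 names were found on the array, on 13 of its 39429 probes for mouse transcripts, which cover 31896 gene names. The 4 groups were tissue at 5 h after 30 min of acute EPS, tissue at 5 h with no acute EPS, tissue at 0 min after the same 30 min of EPS, and tissue at 0 min with no acute EPS. EPS is read here as electrical pulse stimulation, a current used to make cultured muscle contract. Each group holds 1 array, so no spread between tissues is known and no p-value was computed. The labels name neither the cells the tissue was built from nor any drug or genotype, and the series title, which concerns hypoxia and cholecystokinin, is matched by no hypoxia label on an array.

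In the acute phase response, cytokines such as interleukin-1, tumour necrosis factor and the interleukin-6 family switch on secreted defence proteins, classically in liver and also in fibroblasts, epithelia and muscle. The C/EBP transcription factors, NF-kB and STAT3 carry that signal to the genes, and the factors C/EBP beta and C/EBP delta are themselves induced by it. Alarmins are a related class, released from stressed or dying cells, which neighbouring cells sense through receptors such as the product of Il1rl1.

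Short stretches before the transcription start are shown because C/EBP beta and delta are both among the 10 genes and C/EBP factors bind sites like those in capitals. The motif searched was TTGCNNAA on both strands, among the 250 bases ahead of each start, in sequences from RefSeq on build GRCm38.p6. RefSeq promoters were matched for 9 of the 10 genes, in 10 windows, with 2 alternative starts for Il1rl1. The motif was found in 7 of the 10 windows, against 9.56% of all 32851 windows of the same length. In S100a8 the capitals mark a TATAAA match in place of a C/EBP match. A match of letters is a description and shows neither binding nor use of the site.
Ptx3, chr3:66219820-66219847, plus strand: tggtttaacaTTGTGCAAcctcttcagc
Saa3, chr7:46715758-46715785, minus strand: gtaagtgggaTTATGCAAgatcaaacag
Il1rl1, chr1:40429526-40429553, plus strand: gcaactgtatTTGCATAAaactattaga
C3, chr17:57228164-57228191, minus strand: ggaaactatgTTGCGAAAttttgggcag
Lcn2, chr2:32387938-32387965, minus strand: gcccttcctgTTGCTCAAccttgcacag
Slpi, chr2:164356731-164356757, minus strand: gaatttgtaTTGAGCAAtaggttagag
S100a9, chr3:90695940-90695967, minus strand: gtaggctgtcTTGCTTAAgatttgggcg
S100a8, chr3:90669031-90669056, plus strand: agctttcctcTATAAAagcagctgac
The match nearest to a start was that of Il1rl1, whose first base lay at -34 from the more upstream of its starts, followed by C3 at -45, Ptx3 at -57 and Saa3 at -99. In Lcn2, S100a9 and Slpi it lay farther out, at -216, -236 and -241. The kappaB motif and the letters TGANTCA (AP-1) and TTCNNNGAA (STAT) were found in 0 of the 10 windows, against 3.86%, 6.75% and 7.02% of all windows, and TATAAA in 1 of 10, against 12.4%. No stretch printed holds matches to more than 1 of these motifs.

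Saa3 and S100a8 were each read by a single probe, and the probe sequences are shown because both genes have close relatives whose transcripts a probe must avoid. The Saa3 probe begins at base 56 of its transcript and the S100a8 probe at base 213.
Saa3, build mm9, chromosome 7, 53970389 to 53970448, minus strand: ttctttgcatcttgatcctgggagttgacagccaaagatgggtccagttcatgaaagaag
S100a8, build mm9, chromosome 3, 90473778 to 90473837, plus strand: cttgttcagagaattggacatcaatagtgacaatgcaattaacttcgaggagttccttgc
How far either probe also reads a related transcript was not tested.

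The level of a gene is the log2 of its processed spot signal minus the log2 of the 75th percentile of its array, so that 0 marks the 75th percentile and each unit up is a doubling. That percentile was 1492, 1280.3, 1093 and 1363 signal units at 5 h with EPS, 5 h without, 0 min with and 0 min without. Between 19164 and 19423 genes were well above background on an array, and so were the 10 genes on all 4. The only error that can be measured is that between spots of 1 labelled RNA, from probes printed 10 times. Over the 273 of 399 such probes that were measured in each EPS comparison, the standard deviation (SD) of a log2 difference between spots had a 95th percentile of 0.25 for EPS at 5 h and 0.26 for EPS at 0 min. For probes with a level below -3 it was 0.37 and 0.35, so S100a9, and the other genes where they were dim, are known less precisely.

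The labelling protocol names mouse leukocytes as the RNA source, against muscle in every title, which bears on genes that neutrophils and other leukocytes also express. All 12 skeletal muscle markers were well above background on all 4 arrays, and their summed level was 738 at 5 h with EPS and 802 without, and 979 at 0 min with EPS and 857 without, in multiples of the 75th percentile signal. The leukocyte gene Ptprc stayed at background on all 4 arrays, as did 7 of 12 neutrophil markers (Mpo, Ltf, Ngp, Cxcr2, Mmp8, Retnlg and Fcnb). The neutrophil markers seen on all 4 arrays, Elane, Camp, Csf3r and Ly6g, summed to 45.3 at 5 h with EPS and 47.8 without, and to 44.7 at 0 min with EPS and 46.6 without, nearly all of it Csf3r. Macrophage and monocyte markers, 4 of 11 seen on all arrays, summed to 6.25 and 7.01 at 5 h with and without EPS, and to 7.42 and 8.15 at 0 min. Lymphocyte markers, 4 of 8 seen on all arrays, summed to 1.82 and 2.06 at 5 h with and without EPS, and to 1.98 and 2.12 at 0 min, and fibroblast markers, 8 of 9 seen, to 253 and 295 at 5 h and to 354 and 323 at 0 min. The sums leave out markers seen on only some arrays, among them Mmp9, the remaining neutrophil marker, which was seen only at 5 h with EPS and was at least 4.14-fold higher there than without. Within the neutrophil sum, Camp and Ly6g differed by 0.18 and 0.17 log2 units with EPS at 5 h and Elane by -0.25. The part of these markers in the results below was not tested. In such bulk tissue, fewer cells of a type and less RNA per cell cannot be told apart.

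**Figure D1:**
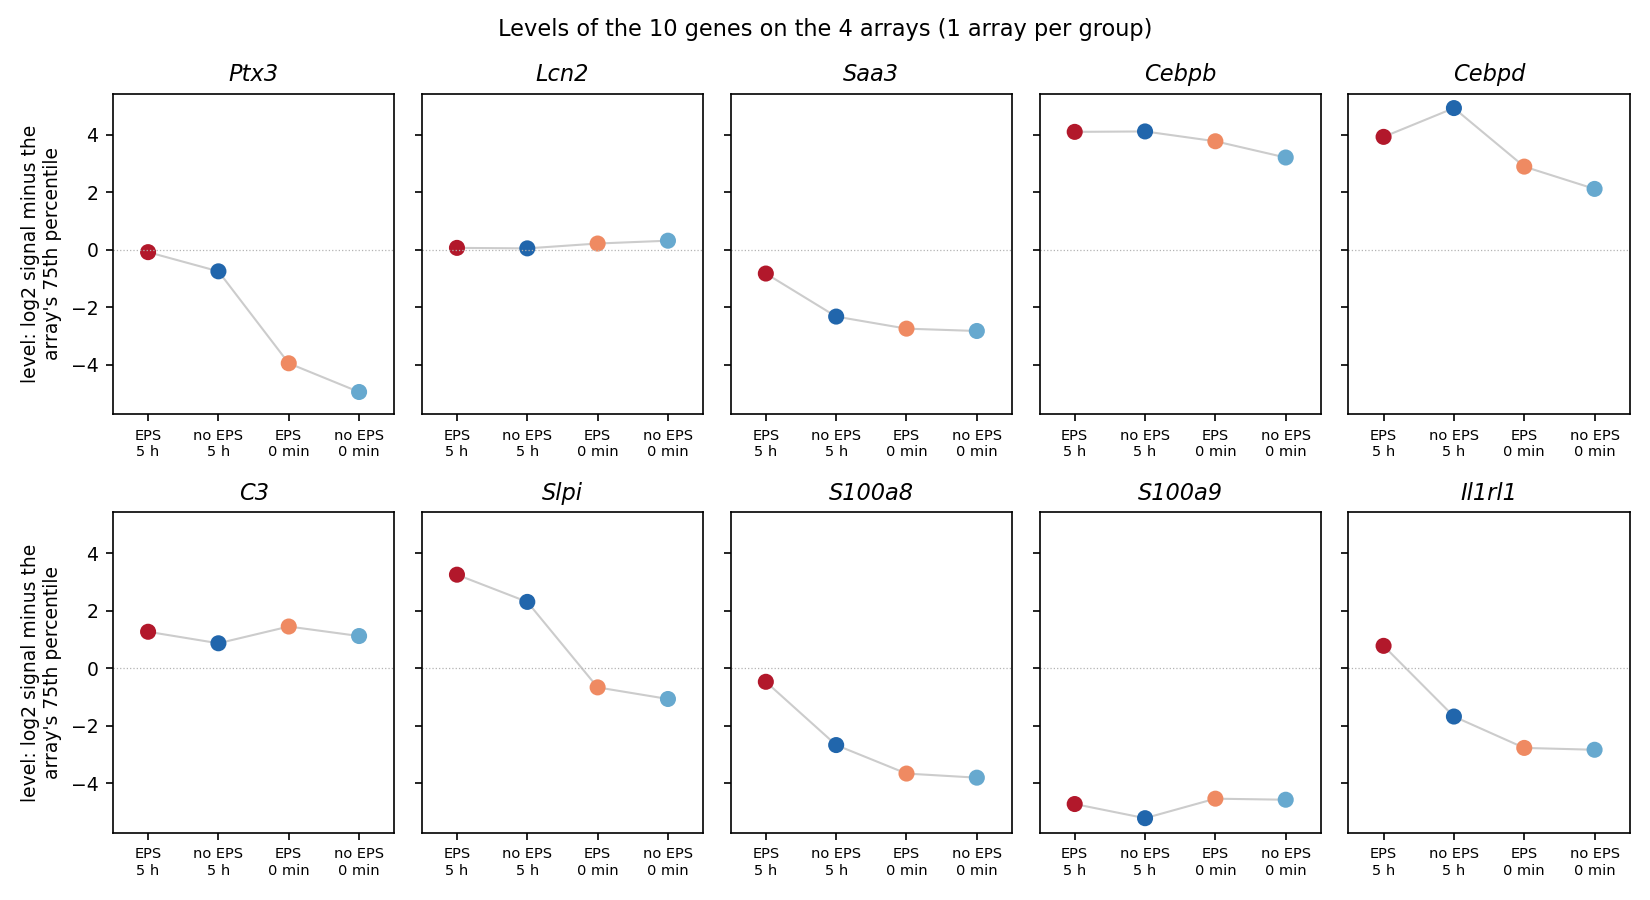
Level of each of the 10 genes (vertical axis, log2 signal minus the 75th percentile of the array) on the 4 arrays, 1 point per array. Ptx3, Slpi, S100a8, Il1rl1 and Saa3 were highest at 5 h with EPS, and Cebpd at 5 h without EPS. Lcn2, C3, S100a9 and Cebpb spanned less than 1 log2 unit.

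At 5 h the genes with the largest EPS difference were the alarm genes Il1rl1 and S100a8, at 5.50-fold and 4.60-fold higher with EPS than without, followed by Saa3 at 2.82-fold. Cebpd stood at 2.002-fold lower, on the threshold itself. Slpi, Ptx3, S100a9 and C3 were between 1.32-fold and 1.93-fold higher, under the 2-fold size rule that stands in for a test. Lcn2 and Cebpb differed by 1.01-fold. In all, 3 of the 10 genes were at least 2-fold higher and 1 at least 2-fold lower, where 0.69% of 18543 measured genes were higher and 0.523% lower. Since these differences were among the values that chose the genes, nothing is read from that contrast. The median log2 difference was 0.58 over the 10 genes and -0.03 over all measured genes.

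Il1rl1 encodes ST2, the receptor for the alarmin interleukin-33, which exists as a membrane receptor and as a secreted decoy made from a shorter transcript. Its signal on the probe annotated to transcript variant 2 was 2555 at 5 h with EPS and 399 at 5 h without, and 159.7 at 0 min with EPS and 190.3 without. The level was 0.78 at 5 h with EPS, against -1.68 without, and -2.78 at 0 min with EPS, against -2.84 without. The array at 5 h with EPS thus stood alone, with the unstimulated 5 h array next and both 0 min arrays low and close together. The log2 difference with EPS was 2.46 at 5 h, rank 9 from the top among 18543 genes, and 0.06 at 0 min.

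The other Il1rl1 probes are annotated to transcript variant 1. On the distal one, at chromosome 1, 40522187 to 40522246 on mm9, the signal was 670.1 at 5 h with EPS and 159 without, and 43.8 at 0 min with EPS and 47.5 without. Its log2 difference with EPS was 1.86 at 5 h and 0.20 at 0 min and its levels fell in the same order over the arrays as those of the variant 2 probe. From 0 min to 5 h without EPS the distal probe differed by 1.83 and the variant 2 probe by 1.16, whereas after EPS they differed by 3.49 and 3.55. The third probe, at 40520014 to 40520073, stayed at background on every array and gives no fold. Each Il1rl1 probe is a single spot, and differences between them were not tested. The variant 2 probe lies at 40504769 to 40504828. Mast cells carry ST2, and of 8 mast cell markers 4 (Cma1, Mcpt4, Tpsb2 and Gata2) were seen on all 4 arrays, with sums of 0.77 and 0.79 at 5 h with and without EPS and of 0.72 and 0.83 at 0 min. Kit, Cpa3 and Fcer1a stayed at background throughout, while Ms4a2 was 1.43 log2 units higher with EPS at 5 h, and its part in the Il1rl1 result was not tested.

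S100a8 encodes a small calcium-binding protein of neutrophils and monocytes that pairs with the product of S100a9 as calprotectin. Its signal was 1074 at 5 h with EPS and 200.3 without, and 86.0 at 0 min with EPS and 97.1 without. This is the order seen for Il1rl1, with levels of -0.47 and -2.68 at 5 h with and without EPS, and -3.67 and -3.81 at 0 min. The log2 difference with EPS was 2.20 at 5 h, rank 14 from the top, and 0.14 at 0 min. Its partner S100a9 did not share the pattern: the signal was 56.3 at 5 h with EPS and 34.3 without, and 46.9 at 0 min with EPS and 57.0 without. S100a9 stayed between levels -5.22 and -4.54, close above the lowest levels called well above background (-6.37 to -6.07). Its log2 difference with EPS at 5 h, 0.49, compares with a 95th percentile spot SD of 0.37 for probes this dim, and it was 0.07 under normexp background correction.

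Saa3 is a serum amyloid A gene made mainly outside the liver, by macrophages, fat and other cells. Its signal reached 839 at 5 h with EPS, against 255 without, and was 163 at 0 min with EPS, against 192 without. Only the array at 5 h with EPS was high, since the levels were -0.83 there and -2.33, -2.75 and -2.83 at 5 h without EPS, 0 min with EPS and 0 min without. The log2 difference with EPS was 1.497 at 5 h and 0.08 at 0 min. Of the 5 genes that were 2-fold higher at 5 h than at 0 min without EPS, Saa3 was not one, at a log2 difference of 0.50.

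**Figure D2:**
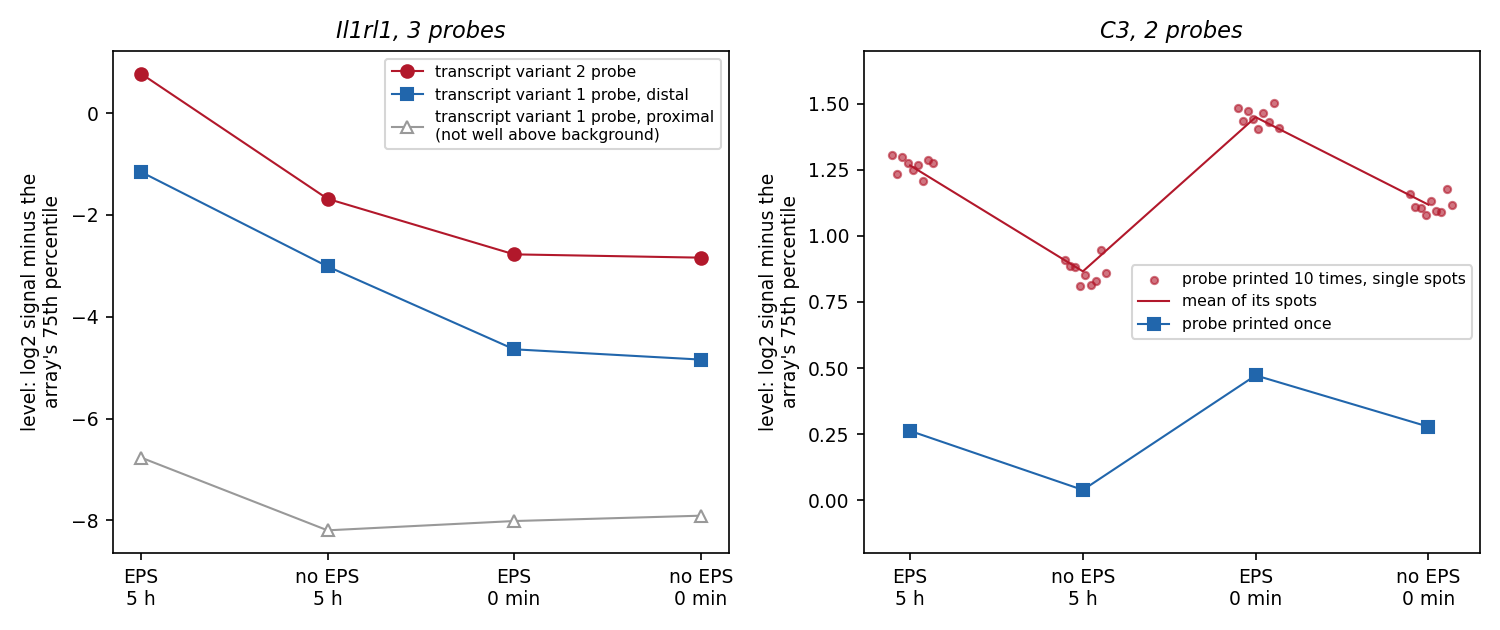
Levels on the 4 arrays (vertical axes, log2 signal minus the 75th percentile of the array) for the 3 probes of Il1rl1 and the 2 probes of C3; small dots are single spots of the C3 probe printed 10 times. The 2 measured Il1rl1 probes were highest at 5 h with EPS, and both C3 probes were lowest at 5 h without EPS.

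Slpi encodes a secreted inhibitor of neutrophil elastase with a WAP fold. It had a signal of 14217 at 5 h with EPS and 6329.7 without, and of 687 at 0 min with EPS and 648 without. Both 5 h arrays were high and both 0 min arrays low, with levels of 3.25 and 2.31 at 5 h with and without EPS, and -0.67 and -1.07 at 0 min. The log2 difference with EPS was 0.95 at 5 h and 0.40 at 0 min. Ptx3, the long pentraxin that opsonizes microbes and binds complement C1q, had a signal of 1405 at 5 h with EPS and 759 without, and of 70.5 at 0 min with EPS and 44.0 without. Its levels, -0.09 and -0.75 at 5 h with and without EPS and -3.95 and -4.95 at 0 min, fell in the same order as those of Slpi. The log2 difference with EPS was 0.67 at 5 h and 0.9989 at 0 min. On mm9 the Slpi probe lies on chromosome 2 at 164179849 to 164179908 and the Ptx3 probe on chromosome 3 at 66029245 to 66029304.

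C3, the complement protein on which all activation routes converge, and Lcn2, a lipocalin that withholds iron by binding bacterial siderophores, varied little. The C3 probe printed 10 times kept 9 spots on each array after 1 outlier spot was left out. Its level was 1.27 ± 0.03 at 5 h with EPS and 0.87 ± 0.05 without, and 1.45 ± 0.03 at 0 min with EPS and 1.12 ± 0.03 without (SD over 9 spots of 1 RNA). At 5 h its spots ran from 1.21 to 1.30 with EPS and from 0.81 to 0.95 without. At 0 min they ran from 1.402 to 1.503 with EPS and from 1.08 to 1.18 without. The C3 difference with EPS was 0.40 ± 0.04 at 5 h and 0.33 ± 0.03 at 0 min, and the second C3 probe gave 0.22 and 0.19. Spot error is thus smaller than the C3 difference in level, while the error between tissues is unknown. Before scaling, the repeated probe had signals of 3589 and 2333 at 5 h with and without EPS, and 2984 and 2957 at 0 min. Those of the second probe were 1789 and 1315 at 5 h, and 1516 and 1652 at 0 min. For both probes the 0 min difference in level thus rests almost wholly on the 75th percentile, 1093 with EPS and 1363 without. All spots of an array share that value. How often the spots of other repeated probes lie apart between 2 arrays was not examined, so nothing is read from these ranges. Among all measured genes C3 ranked 776 from the top of 18543 at 5 h and 1260 from the top of 18589 at 0 min. Lcn2 had signals of 1557 and 1321 at 5 h with and without EPS, and of 1267 and 1691 at 0 min, and its levels lay between 0.04 and 0.31. The Lcn2 difference with EPS was 0.02 at 5 h and -0.10 at 0 min, where the 95th percentile of the spot SD for probes above level 0 was 0.06 and 0.08. The Lcn2 probe lies on chromosome 2 at 32240199 to 32240258, and the C3 probes on chromosome 17 at 57343416 to 57343475 and 57343678 to 57343737, on mm9.

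Directly after stimulation the genes furthest above the unstimulated array were Ptx3 (1.998-fold), Cebpd (1.71-fold) and Cebpb (1.48-fold). None of the 10 was at least 2-fold higher or lower, where 0.549% of 18589 measured genes were higher and 0.791% lower. Ptx3 moved to 0.56 log2 units under normexp, below Cebpd at 0.69, and stood at 1.06 under quantile normalization. Normexp was run with an offset of 50 added to every signal, which shrinks log2 differences of dim probes, and the Ptx3 signals at 0 min were 70.5 and 44.0. In the setting reported, Ptx3 missed the 2-fold size by less than the spot error, just as Cebpd met it at 5 h by less than the spot error (log2 difference -1.002). The median log2 difference of the 10 genes was 0.24 at 0 min, against 0.02 over all measured genes. Of the 10, 9 lay above 0, where 54.5% of all measured genes did. The genes were chosen with these values known, so nothing is read from that contrast either. The genes with the largest differences at 5 h (Il1rl1, S100a8 and Saa3) had differences of 0.06, 0.14 and 0.08 at 0 min, inside the spot error.

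The transcription factor genes were bright on every array. Cebpd, which encodes C/EBP delta, an early responder to inflammatory cytokines, had a signal of 22659 at 5 h with EPS, against 38938 without, and of 8101 at 0 min with EPS, against 5898 without. Its levels were 3.92 and 4.93 at 5 h with and without EPS, and 2.89 and 2.11 at 0 min, so it was higher with EPS at 0 min and lower with EPS at 5 h. The difference of EPS effects, 5 h minus 0 min, was -1.78 on the log2 scale, rank 27 from the bottom among 18105 genes. Cebpb, which encodes C/EBP beta, had a signal of 25562 at 5 h with EPS, against 22165 without, and of 14931 at 0 min with EPS, against 12578 without. In levels, Cebpb stood at 4.10 and 4.11 at 5 h with and without EPS, and at 3.77 and 3.21 at 0 min. The unstimulated 0 min array was thus the low one. The probes lie on chromosome 2 at 167515828 to 167515887 for Cebpb and on chromosome 16 at 15888459 to 15888518 for Cebpd, on mm9.

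**Figure D3:**
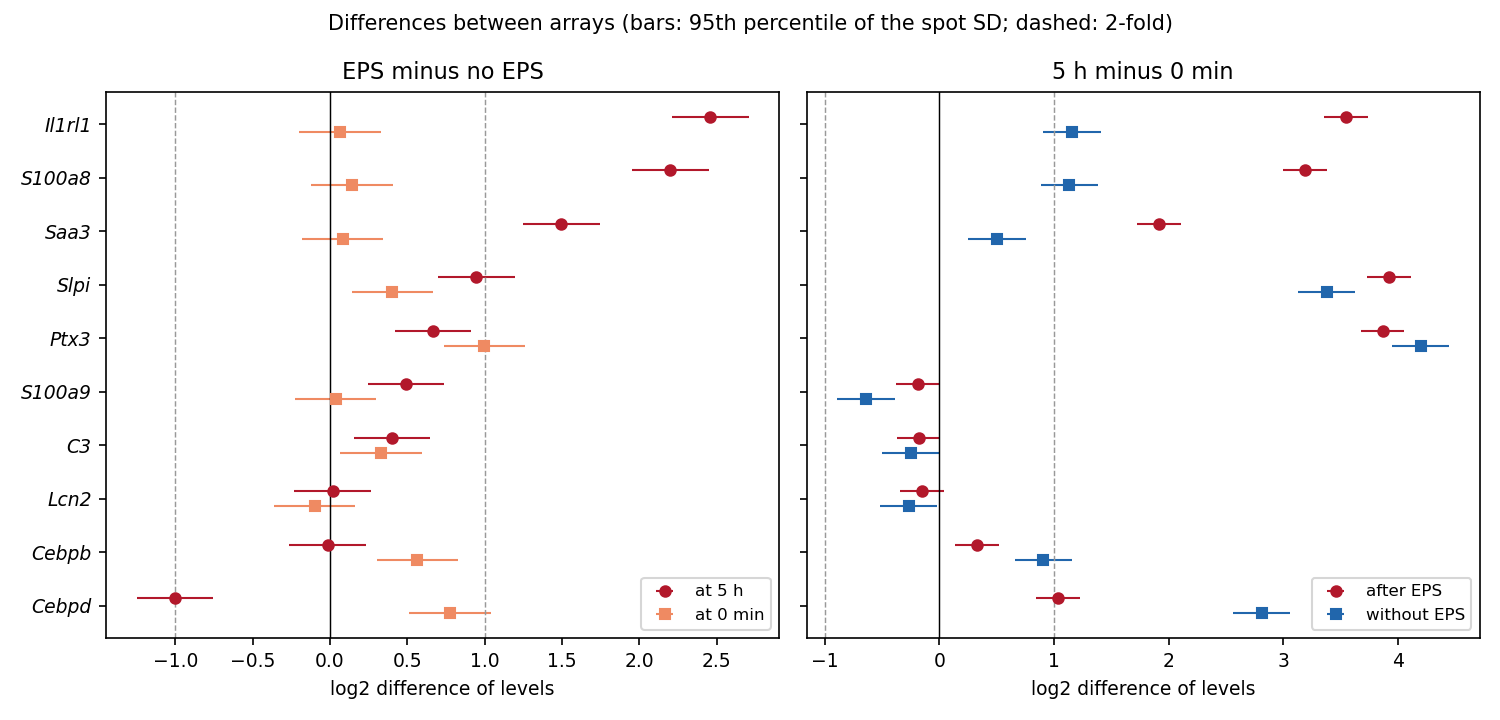
Log2 differences of levels for each gene, EPS minus no EPS (left, at 5 h and at 0 min) and 5 h minus 0 min (right, after EPS and without EPS); bars show the 95th percentile of the spot SD and not error between tissues. Il1rl1, S100a8 and Saa3 lie beyond 2-fold with EPS at 5 h and near 0 at 0 min, while Ptx3 and Slpi lie beyond 3 log2 units in both time comparisons.

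Several of these genes differed more between the times than between EPS and no EPS. At 5 h against 0 min after EPS, 6 of the 10 genes were at least 2-fold higher and 0 lower, where 2.4% of 18470 measured genes were higher and 3.65% lower. They were Slpi (15.2-fold), Ptx3 (14.6-fold), Il1rl1 (11.7-fold), S100a8 (9.15-fold), Saa3 (3.78-fold) and Cebpd (2.05-fold). On the log2 scale, normexp background correction put Ptx3 at 2.93 in place of 3.87 and S100a8 at 2.50 in place of 3.19. The mean of its probes put Il1rl1 at 2.76 in place of 3.55. That mean takes in the Il1rl1 probe that stayed at background on every array, while the measured probes gave 3.55 and 3.49. Without EPS, 5 of the 10 were at least 2-fold higher and 0 lower, where 1.74% of 18484 measured genes were higher and 2.96% lower. Those 5 were Ptx3 (18.4-fold), Slpi (10.4-fold), Cebpd (7.03-fold), Il1rl1 (2.23-fold) and S100a8 (2.20-fold). Under normexp the count was 3, with Il1rl1 at 0.90 and S100a8 at 0.77 log2 units, and Ptx3 stood at 2.86 in place of 4.199, below Slpi at 3.22. The mean of its probes put Il1rl1 at 0.90 as well, again with the background probe counted in, while the measured probes gave 1.16 and 1.83. Cebpb was 1.88-fold higher without EPS and 1.25-fold higher after EPS. The median log2 difference of the 10 genes was 1.48 after EPS and 1.02 without, against -0.08 and -0.02 over all measured genes.

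Lcn2, C3 and S100a9 were the 3 genes below their 0 min level at 5 h, with log2 differences of -0.15, -0.18 and -0.19 after EPS and -0.27, -0.25 and -0.64 without EPS. Every one of these is under 2-fold, and after EPS the sign turned for Lcn2 under median centring (0.03) and for S100a9 under quantile normalization (0.0038). The time and EPS comparisons share arrays: that without EPS uses the same 5 h array as EPS at 5 h, so a low or high value on it enters both with opposite sign.

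Subtracting the EPS difference at 0 min from that at 5 h gave an upward gap of 2-fold or more for Il1rl1 (2.39 on the log2 scale), S100a8 (2.06) and Saa3 (1.42) and a downward one for Cebpd (-1.78). These are 3 and 1 of the 10 genes, where 1% of 18105 genes were upward and 0.994% downward. Slpi (0.54), S100a9 (0.46, or -0.04 under normexp), Lcn2 (0.12), C3 (0.07), Ptx3 (-0.33, or 0.08 under normexp) and Cebpb (-0.58) were under 2-fold.

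**Figure D4:**
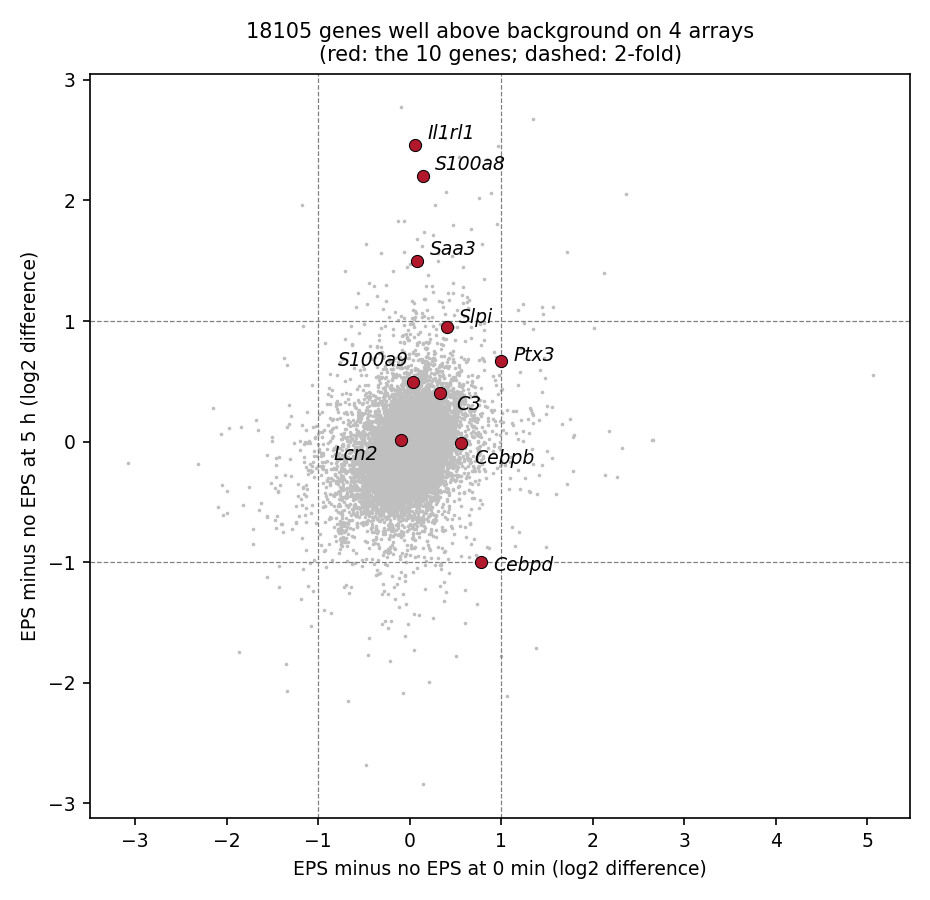
Log2 difference EPS minus no EPS at 0 min (horizontal) and at 5 h (vertical) for 18105 genes well above background on all 4 arrays (grey), with the 10 genes in red; the axes share no array. Il1rl1, S100a8 and Saa3 lie above 2-fold on the vertical axis alone, Ptx3 lies at the 2-fold line of the horizontal axis, and Cebpd lies to the lower right, at the 2-fold line of the vertical axis.

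The 10 genes fell into unlike profiles over the 4 arrays. Likeness was measured as the root mean square difference between 2 genes' levels on 4 arrays, each centred on its own mean, in log2 units. Among the pairs within the 10, S100a8 and Il1rl1 were the closest at 0.13, followed by C3 and S100a9 at 0.15, Lcn2 and S100a9 at 0.20 and Lcn2 and C3 at 0.20, all 3 of which vary little. Ptx3 and Slpi stood at 0.30, and Cebpb and Cebpd at 0.74. The calprotectin partners S100a8 and S100a9 stood at 1.42.

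Outside the 10, the genes closest to Il1rl1 were Lif (0.06) and Il11 (0.18), cytokines of the interleukin-6 family, and the same 2 were closest to S100a8 (0.10 and 0.15). Lif had levels of -0.79 and -3.26 at 5 h with and without EPS, and -4.20 and -4.32 at 0 min. Closest to Slpi were the growth factor gene Ereg (0.13) and the lubricin gene Prg4 (0.14), and closest to Ptx3 were the cystine transporter gene Slc7a11 (0.14) and Fam110c (0.20). Cebpd was nearest to Bcl3 (0.17), an atypical IkB protein, and Gvin1 (0.27), and Saa3 to the cadherin gene Cdh6 (0.06) and an array entry without a gene name (0.14). For the genes that vary little such neighbours are many and close, as with Ebp (0.004) for Lcn2, Dok7 (0.015) for C3, Lgalsl (0.026) for S100a9 and Rnf151 (0.050) for Cebpb. These distances rest on 4 arrays and describe likeness only.

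Other genes of the same pathways were taken from lists of relatives. With EPS at 5 h, 0.69% of all measured genes were 2-fold higher and 0.523% lower, and at shares that low a count of 0 in lists of this size is near the background. Of 21 measured acute phase genes of the liver type (serum amyloid A, haptoglobin, fibrinogen, orosomucoid and others), 0 were at least 2-fold higher or lower with EPS at 5 h, with a median log2 difference of 0.05, and 0 of 22 at 0 min, with a median of 0.01, where 0.549% of all genes were higher and 0.791% lower. Saa1 and Saa2, the serum amyloid A genes of liver, differed by -0.11 and -0.17 at 5 h, unlike Saa3. At 5 h against 0 min this list lay below 0 for 20 of 21 genes after EPS (median -0.51) and 20 of 22 without EPS (median -0.51). All measured genes had medians of -0.08 and -0.02, with 42.5% and 47.5% of them above 0. The haptoglobin gene Hp differed by -0.55 after EPS and -0.50 without, and the fibrinogen gene Fgb by -0.55 and -0.54. The genes above 0 were Serpina3n, a serine protease inhibitor gene, at 0.26 after EPS and 0.02 without, and the dim gene Saa4 at 1.48 without EPS.

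The hepatocyte markers, read as a list of another cell type, were also lower at 5 h. All 7 (Alb, Apoa1, Apoa2, Ttr, Serpina1a, Apob and Cyp2e1) were well above background on all 4 arrays, and 2 of them, Alb and Ttr, are also in the acute phase list. Their summed level was 8.20 at 5 h with EPS and 8.10 without, and 11.2 at 0 min with EPS and 11.1 without. Their log2 differences lay between -0.92 and -0.34 after EPS and between -0.65 and -0.40 without, 5 h against 0 min. Their part in the acute phase list's values was not tested. The direction is opposite to that of Ptx3, Slpi, Cebpd, Il1rl1 and S100a8 in the same comparisons.

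**Figure D5:**
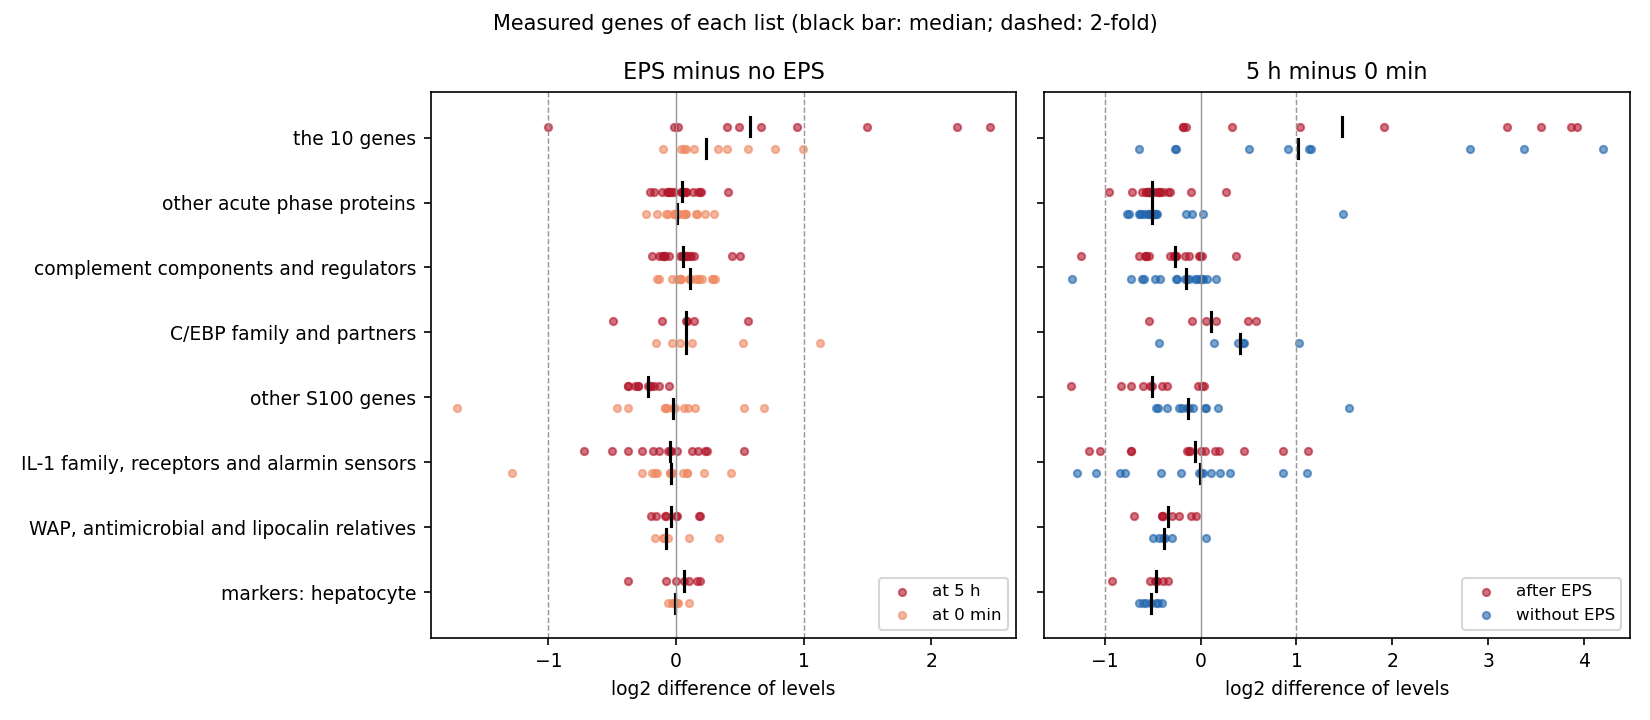
Log2 differences of the measured genes of each list, EPS minus no EPS (left) and 5 h minus 0 min (right), 1 point per gene, with the median as a black bar. The 10 genes spread widely, whereas the other acute phase proteins and the hepatocyte markers gather near -0.5 in both time comparisons and near 0 in both EPS comparisons.

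Of the complement genes other than C3, 0 of 18 measured were at least 2-fold higher or lower with EPS at 5 h (median 0.05) or at 0 min (median 0.11), again near the background. Cfb, the factor B gene of the alternative pathway, differed by 0.44 at 5 h and 0.30 at 0 min, close to the 0.40 and 0.33 of C3. Masp1, a protease gene of the lectin pathway, was the only one of the list past 2-fold over time, at -1.25 after EPS and -1.34 without. In those comparisons 3.65% and 2.96% of all measured genes were at least 2-fold lower, so 1 of 18 is near the background. Among the other S100 genes, 0 of 11 measured were at least 2-fold higher or lower at 5 h and all 11 lay below 0 (median -0.22), where 43.4% of all measured genes lay above 0. Fibroblast markers lay the same way, 7 of 8 below 0 (median -0.30), and their part in the S100 values was not tested. S100a4 and S100a6, both bright, differed by -0.38 and -0.30. At 0 min 1 of 13 measured S100 genes was at least 2-fold lower with EPS, where 0.791% of all measured genes were. It was the dim gene S100g, at -1.71. Over time S100a3 differed by -1.36 after EPS and the dim gene S100a14 by 1.55 without. Outside the 5 h counts, Saa4 and S100a14 were at background at 5 h with EPS and above it at 5 h without, which makes them at least 4.26-fold and 4.91-fold lower with EPS.

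Of 6 measured C/EBP relatives and partners, Trib1, which encodes a pseudokinase that promotes degradation of C/EBP proteins, was 1.13 log2 units higher with EPS at 0 min and 0.14 higher at 5 h. Nfil3, a bZIP repressor gene, was 1.02 higher at 5 h than at 0 min without EPS. With EPS at 5 h, 4 of the 6 lay above 0 (median 0.08), from Cebpa at -0.49 to Ddit3, the gene of the stress factor CHOP, at 0.56.

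In the interleukin-1 list, 0 of 15 measured genes were at least 2-fold higher or lower with EPS at 5 h (median -0.05), near the background. At 0 min 1 of 14 was lower, the kinase gene Irak4 at -1.29, where 0.791% of all measured genes were lower. Irak4 had levels of -4.70 and -3.98 at 5 h with and without EPS, and -3.98 and -2.69 at 0 min. Over time without EPS, which uses the same unstimulated 0 min array, Irak4 also differed by -1.29. Il33, which encodes the ligand of ST2, had levels of 1.39 and 0.86 at 5 h with and without EPS, and 1.39 and 1.65 at 0 min. Its EPS difference was 0.53 at 5 h and -0.26 at 0 min, so the ligand gene stayed within 2-fold. Il1rl1 was 5.50-fold higher with EPS at 5 h on the probe of transcript variant 2. On the distal probe of variant 1 its log2 difference was 1.86. Which product of Il1rl1, membrane receptor or secreted decoy, each probe reads was not tested. Il1rap, the co-receptor gene, differed by 0.24 at 5 h. Myd88, the adaptor gene of these receptors, was higher at 5 h than at 0 min both after EPS (1.12) and without (1.11), and Il18 was lower (-1.17 and -1.09). Of the WAP, antimicrobial and lipocalin relatives of Slpi and Lcn2, 0 of 8 measured were past 2-fold with EPS at 5 h, and 7 of 16 on the array stayed at background on all 4. The medians of this list were -0.34 over time after EPS and -0.38 without.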

How the data were processed

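Total RNA of each tissue was labelled with Cy3 and hybridised to 1 single-colour Agilent array, per the labels' protocols. Per the file headers, Agilent Feature Extraction 10.7.3.1 turned the scans into the processed spot intensity that the authors deposited, corrected for background within the array; the deposited series table holds the same intensities (44397 of 44397 equal on each array, within a relative tolerance of 0.0001). Positions are on build mm9, per the file headers.

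Levels are log2 of the processed intensity minus the log2 of the array's 75th percentile over 43020 non-control spots. Between 112 and 141 outlier spots per array were left out, and no spot was saturated. Spots of 1 probe were averaged, and the brightest probe stood for a gene. Of 39429 probes, 26055 were named through RefSeq accessions (GRCm38.p6), which changed 3358 names, and 13374 kept the file's name.

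A gene was measured in a comparison where it was well above background on both arrays (on all 4 arrays where EPS effects at both times were set against each other). Where only 1 array of a pair saw it, the "at least" fold was set against the floor of the other array, that is its lowest level well above background or the gene's own level if higher. With 1 array per group there is no test, and 2-fold is a size rule; the number of arrays limits the precision. The arithmetic was tested on simulated data. Genes to name beyond the 10 were, per list, up to 3 with the largest difference of at least 2-fold, or counts of 5 or fewer, and the 2 nearest in profile per gene. Saa1, Saa2, Hp, Fgb, Cfb, S100a4, S100a6, Cebpa, Ddit3 and Serpina3n were named beyond that rule, after their values had been seen. So were Il33, Il1rap, Mmp9, Camp, Ly6g, Elane and Ms4a2. The 10 genes, the lists and the settings were chosen with earlier results of these data known. Python 3.11.15, pandas 2.3.3 and limma 3.58.1 (normexp with offset 50, and quantile normalization) were used.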

Additional observations from a re-analysis of the deposited data

Results flagged for a closer look

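The EPS difference had opposite signs at 5 h and at 0 min for Cebpd, Cebpb and Lcn2. With 1 array per group this was not tested. For Cebpd it was -1.002 at 5 h and 0.78 at 0 min, a gap of -1.78 on the log2 scale. For Cebpb it was -0.01 at 5 h and 0.57 at 0 min, a gap of -0.58, and the 5 h value is within the spot error. The 5 h sign of Cebpb turned under quantile normalization (0.01) and median centring (0.07), where the signs were no longer opposite. For Lcn2 it was 0.02 at 5 h and -0.10 at 0 min, a gap of 0.12, with a 95th percentile of the spot SD of 0.06 and 0.08 for probes this bright.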

How the results depend on the processing

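The 7 alternatives were normexp background correction, quantile normalization, median centring, no background filter, a filter on all 4 arrays, the mean of a gene's probes and outlier spots kept. Of 350 values (10 genes, 5 comparisons, 7 alternatives), 344 kept their sign and 340 their side of 2-fold, and 0 values past 2-fold reversed. With EPS at 5 h the count of genes lower was 0 in place of 1 under normexp, quantile normalization and median centring, where Cebpd stood at -0.98, -0.99 and -0.92. With EPS at 0 min the count higher was 1 in place of 0 under quantile normalization and median centring, where Ptx3 stood at 1.06 and 1.04. Without EPS over time the count higher was 3 in place of 5 under normexp, where S100a8 and Il1rl1 stood at 0.77 and 0.90. The mean of its probes also put Il1rl1 at 0.90 there, with the probe that stayed at background on every array counted in. Median centring put Slpi at 1.03 with EPS at 5 h and Cebpb at 1.04 over time without EPS. It moved all measured genes by 0.18 over time after EPS and 0.13 without.

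Among all measured genes, those higher and lower with EPS at 5 h numbered 128 and 97 in the setting reported, 43 and 31 under normexp, 161 and 74 under median centring and 1085 and 1445 without a filter. With EPS at 0 min they were 102 and 147, 42 and 29 under normexp, 117 and 139 under median centring and 1074 and 1172 without a filter. Over time after EPS they were 443 and 674, 257 and 343 under normexp, 530 and 518 under quantile normalization, 737 and 414 under median centring and 1397 and 2543 without a filter. Over time without EPS they were 322 and 547, 185 and 226 under normexp, 470 and 388 under median centring and 1234 and 1877 without a filter. For the difference of EPS effects they were 181 and 180, 34 and 75 under normexp, 204 and 152 under median centring and 1861 and 2117 without a filter. The cause was not tested. No paired analysis was possible because each group holds 1 array, and no array could be left out.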

Other observations

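Some genes of the lists were seen on a few arrays only, and they were picked after their values had been seen. Ms4a2, which encodes the beta chain of the high-affinity IgE receptor of mast cells, was well above background on both 5 h arrays (levels -3.16 with EPS and -4.59 without) and on neither 0 min array. It was at least 8.26-fold higher at 5 h than at 0 min after EPS and at least 2.78-fold higher without EPS, and 1.43 log2 units higher with EPS at 5 h. The mast cell genes Kit, Cpa3 and Fcer1a stayed at background on all 4 arrays. Mmp9, a gelatinase of neutrophils and other cells, was seen only at 5 h with EPS, at least 4.14-fold higher than without. Il1rn, the interleukin-1 receptor antagonist gene, was seen only at 0 min with EPS, at least 4.33-fold higher than without. The adipocyte marker Plin1 was likewise seen only on that array, at least 7.37-fold higher than without. The macrophage marker Cd68 differed by 0.64 on the log2 scale with EPS at 5 h and by -1.33 at 0 min, a gap of 1.97. Csf3r, the receptor gene for granulocyte colony-stimulating factor, was bright and steady, with levels of 5.47 and 5.55 at 5 h with and without EPS and 5.45 and 5.51 at 0 min.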
